A study of Homo sapiens with 4 samples.

Results

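Caspases are cysteine proteases that cut their substrates after aspartate. The genes described here are the apoptotic and inflammatory caspases CASP1, CASP2, CASP4, CASP5, CASP6, CASP8, CASP9 and CASP10, measured in untreated HEK293 cells, a line derived from human embryonic kidney cells and transformed with adenovirus DNA. The members were chosen from a proposal made with results of these data known: the probes are those whose RefSeq accession belongs to one of these genes, and counts and medians below describe the 8 genes listed and not the whole family. The 8 members are 8 of 17217 named genes, with 45 of 71998 probes and 15 of 24000 targets, a target being 1 transcript that was read by 3 probes.

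The 4 arrays form 1 group: cells grown in DMEM with fetal bovine serum to confluence, without treatment, with RNA extracted from 4 separate plates. No other cell type, genotype or condition was compared, and the plates are of 1 line. Each sample was hybridised with 1 dye to a NimbleGen human expression array of long oligonucleotides, and the deposited values are log2 intensities. A gene's level is its log2 intensity, and its distance is that level minus the baseline of the same array. The baseline is the mean plus 2 SD of 10 genes that the study chose as seminal proteins unlikely to be expressed. A gene counts as detected where its mean distance over the 4 arrays is above 0, a rule taken from the methods. The controls SPATA5 and SPATA13 raised the baseline. Without them its mean over the arrays was 7.78 against 10.10, and 74.0% of all genes were detected against 52.7%.

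Caspases are made as inactive precursors. Initiator caspases are activated when adaptor proteins bring them together: CASP8 and CASP10 through death-effector domains at death receptors, CASP9 through its caspase recruitment domain (CARD) on the APAF1 apoptosome, and CASP2 through its CARD on the PIDDosome. The initiators switch on executioners, CASP6 among them, which cut lamins and many other proteins of the dying cell. The inflammatory caspases act apart from this cascade. CASP1 matures interleukin-1 beta and interleukin-18 at inflammasomes, while CASP4 and CASP5 respond to bacterial lipopolysaccharide in the cytosol and cut the pore-forming protein GSDMD.

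Promoters are shown first because the members differ plainly in their letters there, above all in CpG. Each is 300 bases of the RefSeq annotation of GRCh38.p14, from 250 before to 50 after the transcription start, written 5′ to 3′ on the strand of the gene. In the first pair capitals mark the CpG dinucleotides. They are the upstream promoter of CASP2 (chr7:143288101-143288400, plus strand), with 35 CpG, and the promoter of CASP4 (chr11:104968525-104968824, minus strand), with 3. A second CASP2 promoter, further downstream and not shown, holds only 4 CpG.
CASP2: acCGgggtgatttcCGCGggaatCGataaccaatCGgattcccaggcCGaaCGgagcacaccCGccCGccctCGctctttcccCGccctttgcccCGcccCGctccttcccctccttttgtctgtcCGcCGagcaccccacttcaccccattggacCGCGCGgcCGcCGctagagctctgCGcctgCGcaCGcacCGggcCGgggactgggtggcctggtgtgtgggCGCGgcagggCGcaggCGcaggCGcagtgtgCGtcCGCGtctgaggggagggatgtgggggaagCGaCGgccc
CASP4: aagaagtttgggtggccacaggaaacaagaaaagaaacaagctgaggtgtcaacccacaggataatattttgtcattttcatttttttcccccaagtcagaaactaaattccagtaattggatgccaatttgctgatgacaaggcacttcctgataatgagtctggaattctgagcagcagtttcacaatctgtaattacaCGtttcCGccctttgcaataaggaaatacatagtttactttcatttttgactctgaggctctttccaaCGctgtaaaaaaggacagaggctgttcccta

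In the second pair capitals mark, on either strand, the letters TTCNNNGAA and the run of GAAA, any 2 bases and GAAA again, which are simplified forms of sequences bound by interferon-activated factors. They are the promoter of CASP5 (chr11:105023119-105023418, minus strand) and the upstream promoter of CASP8 (chr2:201233213-201233512, plus strand).
CASP5: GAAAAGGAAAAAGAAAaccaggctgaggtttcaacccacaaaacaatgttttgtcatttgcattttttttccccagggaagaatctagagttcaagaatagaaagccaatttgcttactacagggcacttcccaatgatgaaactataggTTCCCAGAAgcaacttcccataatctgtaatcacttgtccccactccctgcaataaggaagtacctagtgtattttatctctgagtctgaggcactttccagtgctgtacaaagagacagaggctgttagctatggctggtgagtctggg
CASP8: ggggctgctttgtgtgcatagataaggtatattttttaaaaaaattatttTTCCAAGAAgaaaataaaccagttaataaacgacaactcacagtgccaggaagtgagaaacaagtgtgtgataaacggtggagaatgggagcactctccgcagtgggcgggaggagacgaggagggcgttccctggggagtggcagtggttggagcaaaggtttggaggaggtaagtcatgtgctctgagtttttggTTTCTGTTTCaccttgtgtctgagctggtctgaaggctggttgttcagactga

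The CASP5 promoter holds 1 match to TTCNNNGAA, at bases 151 to 159, and 2 overlapping matches to the paired GAAA, at bases 1 to 10 and 7 to 16. The upstream CASP8 promoter holds 1 match to each, at bases 51 to 59 and, on the opposite strand, at bases 248 to 257. The CASP4 promoter holds neither, although it shared 212 of 278 aligned bases (76.3%) with the CASP5 promoter. Across 35116 promoters of this length 7.66% held TTCNNNGAA and 3.57% held the paired GAAA. A match is a description of letters in the window and not a site of binding.

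Of the 8 members, CASP2, CASP6, CASP9 and CASP8 had a mean distance above 0, 4 of 8, and all of these were above the baseline on each of the 4 arrays. Over all genes 52.7% had a mean above 0 and 45% were above on every array. CASP10, CASP1 and CASP5 were below on every array, 3 of 8 against 39.8% of all genes. CASP4 was above on 2 arrays and below on the other two. The median distance was −0.11 over the 8 members and 0.26 over all genes. The side of 4 members depended on the baseline: CASP4 and CASP10 came out above it, at 0.95 and 0.49, with olfactory receptor genes as controls, and CASP9 and CASP8 below it, at −0.14 and −0.40, with a baseline of 3 SD. With the baseline as defined, the shares of members above and below differed little from those of all genes. No test was made on the members because the list was chosen with their values known.

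**Figure D1:**
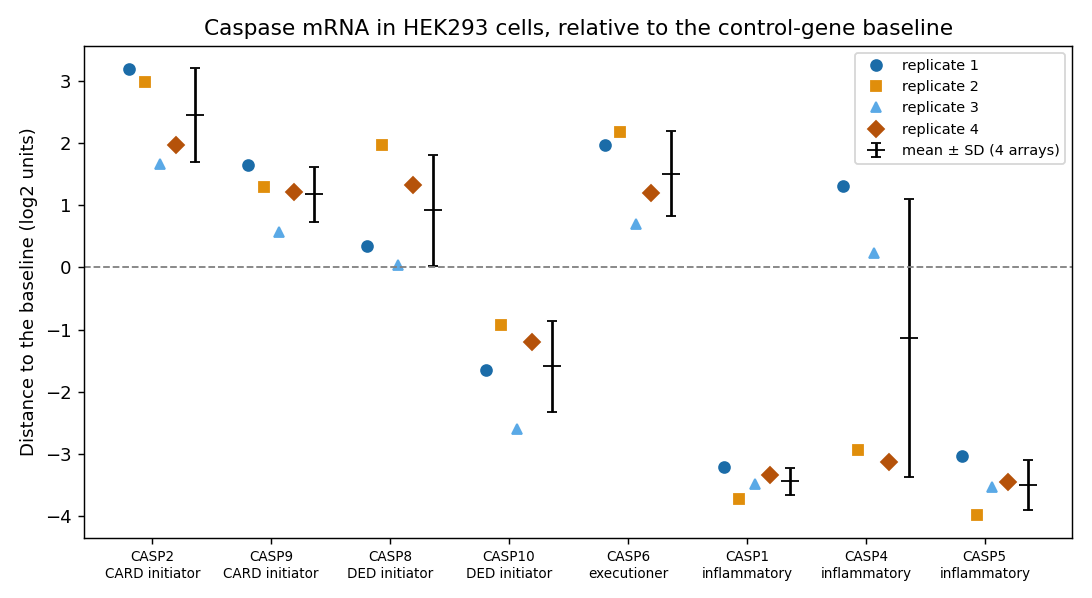
Distance of each caspase to the baseline of its array (vertical axis, log2 units) on the 4 replicate arrays (symbols), with the mean ± SD beside them and the baseline as the dashed line. CASP2, CASP9, CASP8 and CASP6 lie above the line on all 4 arrays, CASP10, CASP1 and CASP5 lie below it on all 4, and CASP4 lies on both sides.

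CASP2, the CARD-bearing initiator of the PIDDosome, had the highest mean distance of the members. Its levels were 12.66, 12.93, 12.35 and 12.29 on replicates 1 to 4, and its distances were 3.19, 2.99, 1.66 and 1.96, with a mean of 2.45 ± 0.75 (SD, n = 4). All 4 values lay well clear of the baseline, and the levels lay between percentiles 72.8 and 79.3 of the genes on their array. CASP9, the initiator of the apoptosome, had levels of 11.11, 11.23, 11.27 and 11.53. Its distances were 1.64, 1.29, 0.58 and 1.21, with a mean of 1.18 ± 0.44 (SD, n = 4). Its 2 targets were each above the baseline on all 4 arrays, with mean distances of 0.90 and 1.46. The level of CASP9 varied little, with an SD at percentile 9.23 of all genes.

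CASP8, the initiator that binds FADD at death receptors, had levels of 9.82, 11.91, 10.72 and 11.64. Its distances were 0.35, 1.97, 0.03 and 1.32, with a mean of 0.92 ± 0.89 (SD, n = 4). Replicates 2 and 4 were higher than replicates 1 and 3, and on replicate 3 the level only touched the baseline. Without replicate 2 the mean was 0.57. CASP8 was the member just inside the rule of detection, and CASP4, at −1.14, the one just outside it. CASP10, the paralogue of CASP8 with the same kind of domains, had levels of 7.83, 9.01, 8.10 and 9.12. Its distances were −1.64, −0.93, −2.59 and −1.21, with a mean of −1.59 ± 0.73 (SD, n = 4). Its 2 targets did not read alike. The first had distances of −0.25, 0.12, −0.96 and 0.13, on either side of the baseline, while the second had a mean of −2.94 and was below it on all 4.

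CASP6, the executioner that cuts lamin A, had levels of 11.43, 12.11, 11.38 and 11.52. Its distances were 1.96, 2.17, 0.69 and 1.20, with a mean of 1.51 ± 0.69 (SD, n = 4). Both of its targets were above on all 4 arrays, the second with a mean of 1.52.

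CASP1, the protease of the inflammasome, had levels of 6.26, 6.22, 7.20 and 6.98. Its distances were −3.21, −3.72, −3.49 and −3.34, with a mean of −3.44 ± 0.22 (SD, n = 4). Its 4 targets were all below, with means from −3.76 to −2.80. CASP5 had levels of 6.44, 5.95, 7.16 and 6.87. Its distances were −3.03, −3.99, −3.53 and −3.45, with a mean of −3.50 ± 0.39 (SD, n = 4). Both genes were among the dimmest on each array, CASP1 at most at percentile 11.4 and CASP5 at most at 10.5. A level this low bounds the mRNA at the background of the array and does not show that none was made.

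CASP4 differed more between arrays than nearly any other gene. Its levels were 10.77, 7.00, 10.92 and 7.18 on replicates 1 to 4, and its distances were 1.31, −2.94, 0.23 and −3.14, with a mean of −1.14 ± 2.24 (SD, n = 4). Replicates 1 and 3 held it near the middle of the genes on their array, at percentiles of 53.1 and 55.0, and replicates 2 and 4 much lower, at 19.0 and 12.7. The SD of its level was at percentile 99.9 of all genes. The lower of replicates 1 and 3 exceeded the higher of replicates 2 and 4 by 3.59 on the log2 scale. That gap ranked 10 of 17217 genes, of which 15 had one over 3. The mean of 4 arrays therefore describes none of them: it was 0.77 over replicates 1 and 3 and −3.04 over replicates 2 and 4. Leaving out 1 array moved the mean of CASP4 to −1.95 without replicate 1, −0.54 without replicate 2, −1.59 without replicate 3 and −0.47 without replicate 4.

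The split of CASP4 was carried by 5 of its 6 probes. The brightest read 12.36, 6.93, 12.41 and 7.20 on replicates 1 to 4. In the second target 1 probe stayed dim on every array, at 5.89, 6.11, 6.55 and 6.96, while the other two followed the first target. Both targets thus moved together, with distances of 2.05, −2.67, 0.99 and −2.78 for the first and 0.56, −3.20, −0.54 and −3.50 for the second. The second target was above the baseline on replicate 1 only.

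CASP8 and CASP10 moved the opposite way and by less. For CASP8 the lower of replicates 2 and 4 exceeded the higher of replicates 1 and 3 by 0.92, which ranked 364 of 17217 genes, and all 3 of its probes were higher on replicates 2 and 4. For CASP10 the same gap was 0.91, at rank 370. CASP6 was separated in this direction too, by only 0.09. In all, 3 of the 8 members were higher on both of replicates 2 and 4, where 18.5% of all genes were. CASP4 alone, 1 of 8, was higher on both of replicates 1 and 3, where 22.2% of all genes were. The arrays were paired in this way by earlier results of these data. The correlations between arrays over the levels of all named genes were 0.971 for replicates 1 and 3 and 0.977 for replicates 2 and 4, against 0.949 to 0.959 for the other pairs. The samples carry no label that separates replicates 1 and 3 from 2 and 4, so the gaps have no test.

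**Figure D2:**
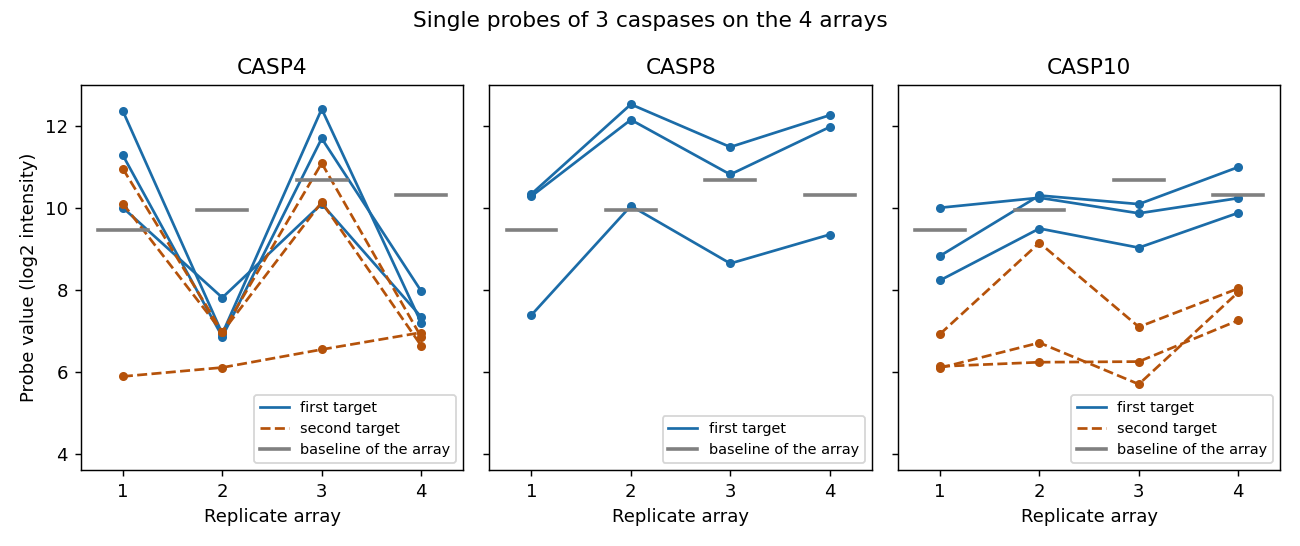
Value of each probe (vertical axis, log2 intensity) of CASP4, CASP8 and CASP10 on replicate arrays 1 to 4, with solid lines for the first target, dashed lines for the second and gray bars for the baseline of the array. 5 of 6 CASP4 probes are high on replicates 1 and 3, while the CASP8 probes are higher on replicates 2 and 4.

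A second division of the arrays ran across the first. Replicates 1 and 2 had the same distribution of values, as did replicates 3 and 4, with a lower quartile of 6.77 in the first pair and 7.37 in the second. The baselines were 9.47, 9.94, 10.69 and 10.32 on replicates 1 to 4. Within these pairs CASP2 had mean distances of 3.09 and 1.81, CASP6 of 2.07 and 0.94, and CASP9 of 1.47 and 0.89. All 3 were above the baseline in both pairs, and by less in the second. The median distance over all genes was lower there too, at 0.99 and 0.44 on replicates 1 and 2 and −0.24 and 0.02 on replicates 3 and 4. CASP8 had means of 1.16 and 0.68, and CASP10 of −1.29 and −1.90. CASP1 and CASP5 barely differed, at −3.47 and −3.41 for CASP1 and −3.51 and −3.49 for CASP5. The mean of CASP4 was below 0 in both pairs, at −0.82 and −1.46, because each pair holds 1 high and 1 low array.

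The inflammatory genes lie in 1 cluster on chromosome 11 and CASP8 and CASP10 in another on chromosome 2, so their neighbours were read as well. Beside CASP4, the genes CASP5, CASP1, CARD16 and CARD18 of the cluster stayed below the baseline on all 4 arrays. CARD16, which resembles the prodomain of CASP1, had a mean distance of −3.83 ± 0.42 (SD, n = 4), and CARD18, another such decoy, had −3.80 ± 0.23 (SD, n = 4). No measured neighbour was split to a like extent: the gap of replicates 1 and 3 over 2 and 4 was 0.05 for CARD16, 0.03 for GRIA4 and negative for the rest. The nearest gene on the far side, DDI1, had levels of 7.28, 9.21, 9.13 and 9.21. Whether the probes of these related genes bind each other's transcripts was not tested, since their sequences were not used here.

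On chromosome 2, CFLAR, whose product is a catalytically inactive relative of CASP8 that competes for FADD, had levels of 11.74, 10.97, 11.94 and 11.65. Its mean distance was 1.47 ± 0.55 (SD, n = 4; limma, adjusted p = 4.05e-05). CFLAR was lowest on replicate 2, where CASP8 was highest. NDUFB3, a subunit of respiratory complex I, was the other gene of this stretch that was higher on both of replicates 2 and 4, with a gap of 0.28.

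**Figure D3:**
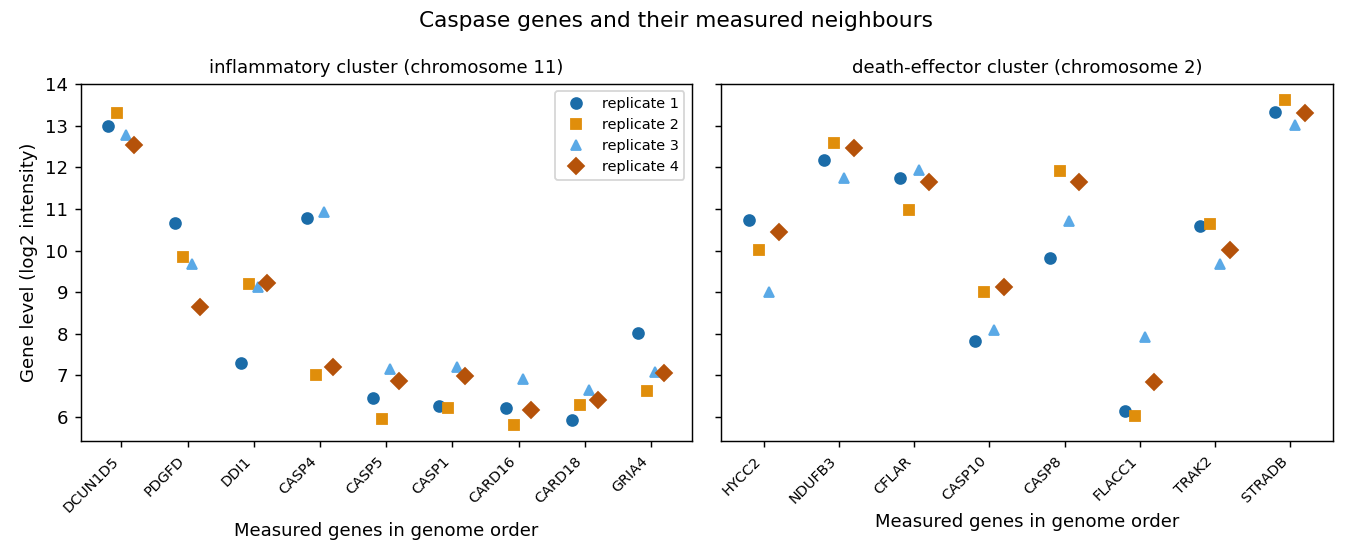
Level of each measured gene (vertical axis, log2 intensity) in genome order around the caspase clusters of chromosomes 11 and 2, with 1 symbol per replicate array. CASP4 is split into replicates 1 and 3 near 11 and replicates 2 and 4 near 7, and its neighbours CASP5, CASP1, CARD16 and CARD18 are low on every array.

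The genes that act with the caspases were taken from lists of 92 genes, of which 88 were measured. Here the distance of each gene was tested against 0 with limma over all 17217 genes. Of the 88, 43 were above the baseline, 36 below and 9 neither, where over all genes 45.8% were above and 41.1% below. The median distance of the 88 was 0.57. Without SPATA5 and SPATA13 as controls 62 were above and 15 below. Lost calls are given below for left-out arrays and variance models only. Calls under other baselines are not given by gene. All genes of an array share its baseline, so these tests are not independent of each other. The fit gave every gene the same standard error, 0.35, so an adjusted p reflects the mean distance and not the spread of that gene, which is printed beside it as an SD.

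The partners of the initiators were mixed. Of 6 genes listed under the apoptosome 5 were above, with a median distance of 2.65. That list also holds DIABLO, HTRA2, AIFM1 and ENDOG, mitochondrial proteins that are not parts of the apoptosome. APAF1, the scaffold that holds CASP9, had 1.54 ± 0.84 (SD, n = 4; limma, adjusted p = 1.73e-05). AIFM1, a flavoprotein of mitochondria, had 5.02 ± 0.66 (SD, n = 4). CYCS, cytochrome c, did not pass the test, at 0.49 ± 0.73 (SD, n = 4; limma, adjusted p = 0.182). PIDD1, the scaffold of the PIDDosome that engages CASP2, was below, at −1.21 ± 0.90 (SD, n = 4; limma, adjusted p = 0.000732), although on replicate 1 its distance was 0.10. The side of PIDD1 depended on the controls. Its mean level of 8.89 was above the mean baseline of 8.02 with olfactory receptor genes and of 7.78 without SPATA5 and SPATA13. CRADD, the adaptor between PIDD1 and CASP2, was above at 0.82 ± 0.86 (SD, n = 4; limma, adjusted p = 0.0232), a call that was lost without replicate 1 (limma, adjusted p = 0.155), without replicate 2 (limma, adjusted p = 0.141) and with the pair as a block (limma, adjusted p = 0.0676).

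Upstream of CASP8 and CASP10, 6 of 11 death receptors and ligands were above and 5 below. The 6 above were receptors, among them TNFRSF21 at 3.54, TNFRSF10B at 3.11, TNFRSF10A at 2.22, the decoy receptor TNFRSF10D at 2.21 and FAS at 1.47. The 5 below were the ligands FASLG, TNFSF10 and TNF, at −3.33, −3.48 and −3.02, and the receptors TNFRSF25, at −2.21, and TNFRSF10C, a decoy receptor, at −0.77. The call of TNFRSF10C was lost without replicate 2 or 4, with a trend and robust prior and with the pair as a block (limma, adjusted p from 0.0637 to 0.149). Among 6 adaptors with death or death-effector domains 4 were above and 2 neither. RIPK1 had 3.11 and PEA15 3.14. FADD, which recruits CASP8, did not pass, at 0.31 ± 0.73 (SD, n = 4; limma, adjusted p = 0.396), and its sign changed between alternatives. BID, which CASP8 cuts to reach mitochondria, was above at 1.99 ± 0.74 (SD, n = 4; limma, adjusted p = 2.32e-08).

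Genes that hold caspases back or release them stood on both sides. Of 7 inhibitor of apoptosis genes 3 were above, namely BIRC5 at 4.45, BIRC6 at 3.73 and BIRC2 at 2.69, and 4 below. Of those 4, BIRC7 and NAIP were at −2.35 and −1.22. The mean level of NAIP, 8.89, was above the mean baseline of 8.02 with olfactory receptor genes as controls. BIRC3, at −0.75, lost its call without replicate 2, 3 or 4, with a trend and robust prior and with the pair as a block (limma, adjusted p from 0.0633 to 0.255). XIAP, which binds CASP9 and the executioners, was below at −0.74 ± 1.14 (SD, n = 4; limma, adjusted p = 0.0418). That call was lost without replicate 3, at −0.20 (limma, adjusted p = 0.611), without replicate 4 (limma, adjusted p = 0.12), with a trend and robust prior (limma, adjusted p = 0.0764) and with the pair as a block (limma, adjusted p = 0.101). Its antagonists DIABLO and HTRA2 were above, at 2.92 and 3.01. Among BCL2 relatives, 3 of 6 survival genes (MCL1 at 3.22, BCL2L2 at 1.69, BCL2L1 at 1.59), 2 of 3 BAX-like effectors (BAX at 3.55, BAK1 at 2.45) and 5 of 8 BH3-only genes, PMAIP1 at 3.58 being the highest, were above. Of the BH3-only genes above, BMF lost its call without replicate 1 (limma, adjusted p = 0.106).

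Downstream, all 10 apoptotic substrates on the list were above the baseline, with a median distance of 3.37, and none of the 5 cytokine substrates of the inflammatory caspases was, with a median of −3.08. LMNA, the lamin that CASP6 cuts, had 2.98 ± 0.60 (SD, n = 4; limma, adjusted p = 7.46e-17). LMNB2 had 4.85, ACIN1 4.17 and PARP1 3.76. IL1B and IL18, the precursors that CASP1 matures, were at −3.08 ± 0.34 (SD, n = 4; limma, adjusted p = 6.77e-18) and −3.32 ± 0.49 (SD, n = 4; limma, adjusted p = 1.81e-20). All 8 inflammasome sensors were below as well, with NLRP3 at −3.55 and AIM2 at −3.27. The side of some sensors depended on the controls. The mean levels of NLRC4, NLRP1, NLRP7 and MEFV were 9.25, 8.54, 8.29 and 8.04. All of these were above the mean baseline of 8.02 with olfactory receptor genes as controls, MEFV only barely. NLRC4, at −0.85, lost its call without replicate 4 (limma, adjusted p = 0.175) and with the pair as a block (limma, adjusted p = 0.0576). PYCARD, the adaptor between sensors and CASP1, was at −2.53 ± 0.57 (SD, n = 4; limma, adjusted p = 1.23e-12). GSDMD, the substrate of CASP1, CASP4 and CASP5, did not pass, at −0.30 ± 1.02 (SD, n = 4; limma, adjusted p = 0.416), and was below without replicate 1, at −0.77 (limma, adjusted p = 0.0304). Among the necroptosis genes, RIPK3 was below at −2.94 and MLKL did not pass, at 0.52. Without replicate 3 MLKL was above, at 0.92 (limma, adjusted p = 0.0177).

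**Figure D4:**
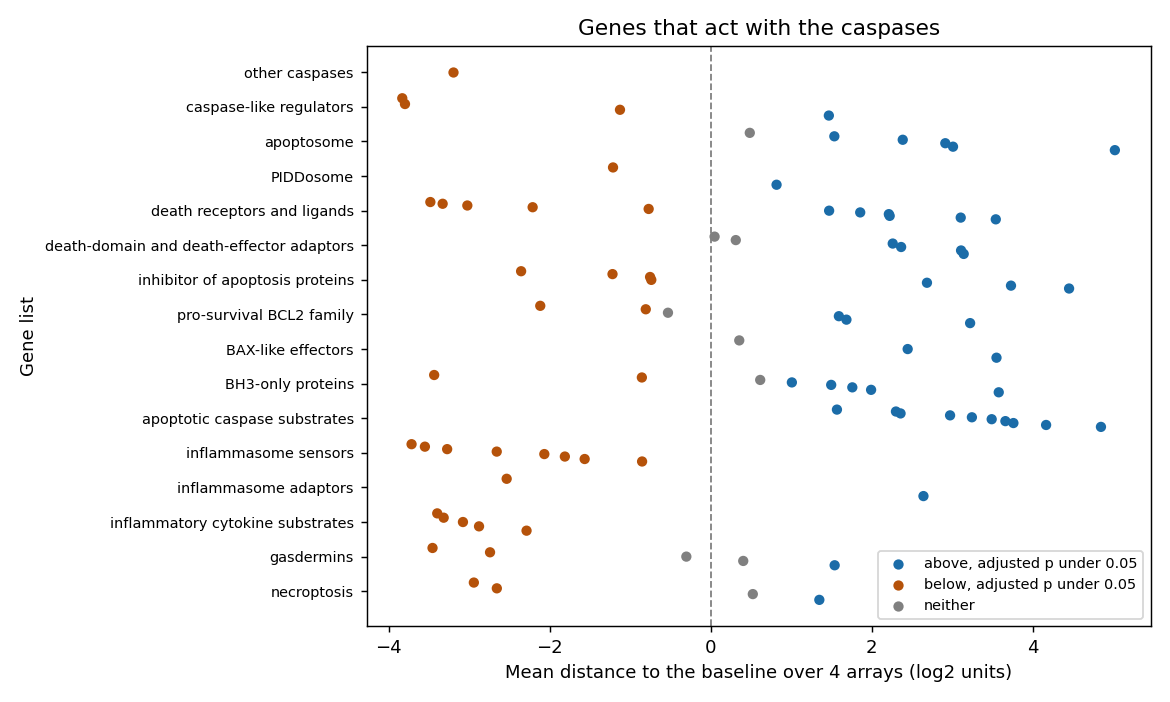
Mean distance to the baseline over 4 arrays (horizontal axis, log2 units) for each measured gene (point) of the lists of genes that act with the caspases (rows), coloured by the limma call. All 10 apoptotic substrates lie right of the baseline as defined, and all 8 inflammasome sensors and all 5 cytokine substrates lie left of it. Some sensors change side with other controls.

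Of these 88 genes 23 were higher on both of replicates 1 and 3 and 16 on both of replicates 2 and 4, where 22.2% and 18.5% of all genes were. The gaps were small beside that of CASP4: GSN, a substrate of the executioners, had 1.29 and BMF 1.01 in the first direction, and NLRP7 had 1.70 in the second. Outside these lists, the neuronal marker NEFM was split in the direction of CASP4, with levels of 13.57, 8.32, 13.09 and 8.08 on replicates 1 to 4. The kidney marker SLC34A1 was split in the opposite direction, with levels of 6.41, 9.70, 7.53 and 9.63. Both were named for these splits, and neither marker list was split as a whole. The neuronal marker NEFH went the opposite way to NEFM, with levels of 11.61, 12.65, 11.38 and 12.36. The kidney marker CUBN was not split, with levels of 7.64, 7.43, 7.57 and 7.83. Markers of white blood cells, which are the usual source of CASP1, CASP5 and IL1B, were below the baseline in 9 of 10 cases, of which CD79A lost its call in 5 alternatives (limma, adjusted p from 0.07 to 0.122). The exception was CD68, a lysosomal protein that other cells also make, at 1.67. Markers of mature kidney were below in 9 of 10 as well, with LRP2 above at 1.27, while 5 of 8 neuronal genes were above.

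Promoters were at hand for 6 of the members, of which 4 were detected and CASP4 and CASP5 were not. The CASP5 promoter has 0 CpG and that of CASP4 has 3, while the richest promoters of CASP2, CASP9 and CASP6 have 35, 36 and 28. CASP8 was detected with at most 6, and CASP1 and CASP10 had no entry. Grouped by the richest promoter of each gene, 6.70% of 2105 genes with 0 to 5 CpG were detected, 17.2% of 977 with 6 to 10, 54.2% of 2157 with 11 to 20 and 71.3% of 8568 with 21 to 69. CASP8 was thus detected with a promoter count at which few genes were.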

How the data were processed

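The deposited table holds 1 log2 intensity per probe and array. Per the labels and the study's methods the authors hybridised Cy3-labelled cDNA to 4-plex arrays and extracted signals with NimbleScan; RMA is named in the submitters' processing notes, with no role given. Replicates 1 and 2, and 3 and 4, share a distribution of values. Probes were named through the RefSeq accession in their identifier. A target's level was log2 of the mean linear value of its 3 probes and a gene's the mean over its targets. Levels of different genes are not comparable, since probes differ in affinity, and the number of arrays limits the precision. PYY2, 1 of 11 control genes, was unmatched.

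Distances were tested two-sided with limma 3.58.1 in R 4.3.3, with Benjamini-Hochberg adjustment at 0.05 over 17217 genes; tables used pandas 2.3.3 in Python 3.11.15. An exact permutation test over 4 arrays cannot go below p = 0.125. Named genes were mainly the members, direct partners, leading genes of each list, genes of short lists and genomic neighbours. In the comparison of array pairs, GSN, BMF, NLRP7, NEFM and SLC34A1 were named for their gaps. The members and lists were chosen with earlier results of these data known. Some items are not reported here, and the counts leave them out. Alternatives changed the baseline, controls, probe summary, targets, dim-probe filter, normalization, arrays and variance model.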

Additional observations from a re-analysis of the deposited data

Results flagged for a closer look

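Among 284 combinations of gene and quantity (member, listed, marker and control genes, each as level and distance), 9 had 1 array far from the other 3 by Dixon's criterion, which chance meets in about 1 of 20. None was a member. CRADD, the adaptor of CASP2, had a level of 10.09 on replicate 4 against 11.19 to 11.21. Distances were highest on replicate 1 for BAD at 0.28, BAX at 4.36, DEDD2 at 3.83, LMNA at 3.87 and the control SPESP1 at −2.15. BOK was lowest on replicate 3 at −0.37, the control ODF1 lowest on replicate 4 at −3.65, and the leukocyte marker PTPRC highest on replicate 3 at a level of 7.73.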

How the results depend on the processing

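The count of caspases above the baseline was 4 and ranged from 2 to 6 over the alternatives, with 2 at a baseline of 3 SD. The median distance of −0.11 became 1.21 at a baseline of 1 SD, −1.43 at 3 SD, 2.22 without SPATA5 and SPATA13 as controls, 1.97 with olfactory receptor genes as controls, 1.60 with the median and MAD of the controls, 0.30 with the highest target of a gene, 0.92 with dim probes left out, where CASP5 had no probe left, and 0.48 in replicates 1 and 3 alone. Pathway genes below the baseline fell in number from 36 to 15 without SPATA5 and SPATA13, 19 with olfactory receptor genes, 20 with the median and MAD and 19 with dim probes left out, and those above ranged from 29 to 62 against 43. CASP4 changed sign to 0.18 at 1 SD, 1.19 without SPATA5 and SPATA13, 0.95 with olfactory receptor genes, 0.57 with the median and MAD and 0.77 in replicates 1 and 3 alone. CASP10 changed sign under the control settings only, to 0.73, 0.49 and 0.11 in the same order. CASP9 and CASP8 changed sign only at 3 SD, to −0.14 and −0.40. CASP2 and CASP6 stayed above, and CASP1 and CASP5 below, in every alternative. The gap of CASP4 ranged from 2.94 to 3.97 over alternatives, chosen after seeing the data, that change its level. Leaving out each replicate in turn left the count of caspases at 4 and the sign of each member as it was, while the median distance ranged from −0.28 without replicate 1 to 0.16 without replicate 4 and was 0.02 without replicate 2. A higher or lower baseline shifts every distance by construction. With the pair of arrays that shares a distribution as a random block, 42 pathway genes were above and 30 below. No paired analysis was possible because the arrays form 1 group, with no second group to pair them with.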
